A study of Mus musculus with 6 samples.

Results

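The genes described here are 43 ribosome biogenesis factors of the mouse, taken by name from a table of 55378 genes. They were chosen by name as a pathway set, with no measured value in the rule, but with earlier results of these data known. By their known roles they fall into RNA polymerase I (3 genes), small nucleolar ribonucleoproteins (snoRNPs, 8 genes), small subunit assembly (16 genes), large subunit assembly (12 genes) and factors that act in several steps (4 genes). All 43 had enough counts to be tested. The samples were mouse embryos that had been injected as zygotes with siRNA-NC (negative control) or siRNA-Eif4a3 (Eif4a3-KD) and were collected on day 5. Each group had 3 libraries, each from a pool of 5 embryos, so every value is a mean over 5 embryos of mixed cell types. The labels give no strain, genotype or age beyond the day, and they do not say whether the pools of a group had separate parents. The p-values therefore measure the spread between these pools. In such bulk samples, fewer cells of a type and less RNA per cell cannot be told apart.

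Ribosome assembly starts in the nucleolus, where RNA polymerase I transcribes a long precursor of the ribosomal RNAs. Box C/D snoRNPs guide methylation and box H/ACA snoRNPs guide pseudouridylation of this precursor. The processome built around it releases the small subunit precursor, while another set of factors folds and exports the large subunit precursor. Cleavage-stage embryos start this synthesis anew after fertilization, and mouse embryos without Fbl, Pes1 or Bysl are known to fail before or around implantation. Eif4a3 is a helicase that clamps the exon junction complex onto spliced mRNA, and this complex helps to mark transcripts with an early stop codon for nonsense-mediated decay (NMD). Its yeast relative Fal1 is itself a small subunit assembly factor.

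Levels are given as CPM, the usual unit of counts scaled to the effective library size, and ± marks the standard deviation over 3 libraries. Values are listed in the order of replicates 1, 2 and 3. Summed counts ranged from 15607227 to 18697754 per library. Eif4a3 RNA measured 302, 255 and 202 CPM in siRNA-NC and 16.03, 36.2 and 56.2 CPM in siRNA-Eif4a3, a 7.01-fold lower mean (log2 −2.81, SE 0.44, edgeR adjusted p 0.00512, exact permutation p 0.1, the smallest that n = 3 against 3 allows). A gene is called here when its adjusted p, over 15619 genes tested with edgeR, is under 0.05. Some markers of other stages and lineages also differed between the groups. For their counts below, the shares over all genes tested were 7.52% called higher and 5.56% called lower. The summed level of 8 trophectoderm markers ranged from 2156 to 5662 CPM in siRNA-NC and from 507 to 2180 CPM in siRNA-Eif4a3, where 3 of 7 tested fell. For 7 epiblast markers the ranges were 523 to 649 and 213 to 301 CPM (2 of 7 tested fell), and for 7 primitive endoderm markers 275 to 289.9 and 68.7 to 88.0 CPM (3 of 6 tested fell). Single genes carried much of these sums. Tdgf1 went from a mean of 182 to 5.03 CPM, while Nanog, Pou5f1, Fgf4, Klf2 and Zfp42 were not called. Sparc went from 182 to 11.6 CPM, while Gata6 (63.5 and 58.3 CPM), Gata4 and Lama1 were not called. The trophectoderm sums overlapped and were mostly Krt8 and Krt18, and Krt8, Cdx2, Tfap2c and Tead4 were not called. The 8 markers of the 2-cell stage summed to between 0.197 and 0.298 CPM in siRNA-NC and to between 51.1 and 212 CPM in siRNA-Eif4a3. Of these, 6 were tested and called higher, and Tdpoz4 and Dux were not tested. The 6 had enough counts to be tested only through the siRNA-Eif4a3 libraries, so their shared direction was set by the filter on low counts. Of 7 cumulus cell markers, 5 were at 0 in every library (Amh, Cyp19a1, Ptx3, Has2 and Fshr), and the list summed to at most 0.133 CPM. Oocyte markers summed to 3.08 to 9.63 CPM and 3.37 to 12.5 CPM (1 of 3 tested rose), blood markers to 6.63 to 45.6 and 3.23 to 6.66 CPM (2 of 4 fell), and fibroblast markers to 1.99 to 12.99 and 1.81 to 10.8 CPM (0 of 3 called). Sperm markers summed to 1.04 to 2.43 and 0.969 to 3.37 CPM, with none tested. The called genes Oosp1 (oocyte), Sox2 (epiblast), Pdgfra (primitive endoderm), Hbb-bs and Hbb-bt (blood) also had enough counts only in the group where they are high. The part of these shifts in the values below was not tested.

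Most of the factors did not pass the test. Fbl and Dkc1 rose and Bysl and Heatr1 fell, while the other 39 were not called. This is 4 of 43 members, or 9.30%, beside 13.1% of all genes tested (2043 of 15619). By direction, 2 of 43 members were higher beside 7.52% of all genes, and 2 of 43 were lower beside 5.56%. The median log2 fold change of the members was −0.19 (range −1.87 to 1.75), beside 0.03 over all genes, and 27 of 43 lay below 0, beside 7617 of 15619 genes. The members' median depended on single libraries. It was 0.01 without control replicate 1, −0.09 without knockdown replicate 2 and −0.33 without knockdown replicate 1. The library values of the groups did not overlap for 11 members (25.6%), 6 higher and 5 lower, beside 36.4% of all genes tested. The median standard error of a member's log2 fold change was 0.35, beside 0.46 over all genes.

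**Figure D1:**
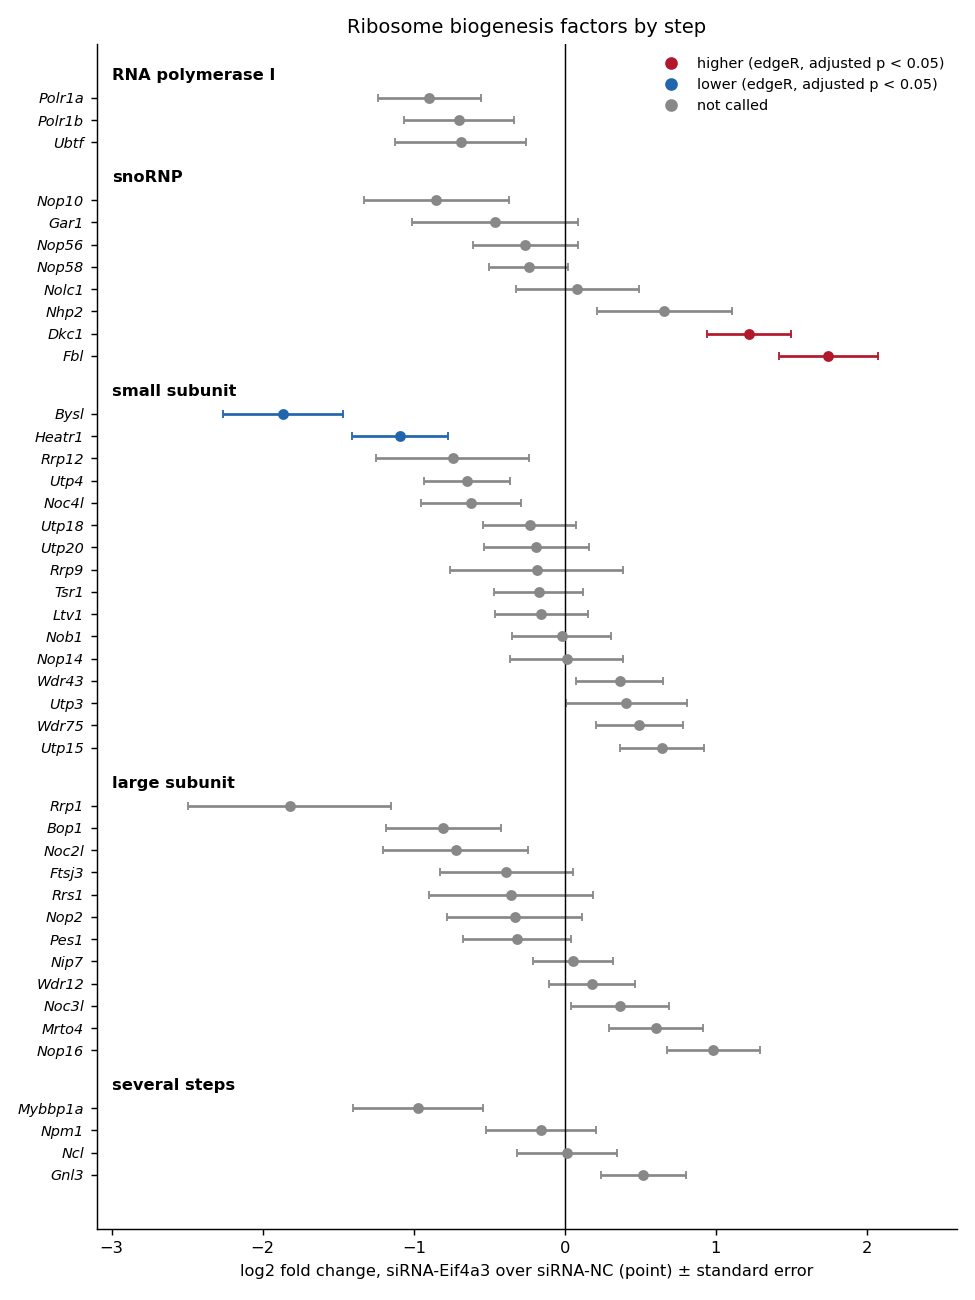
Log2 fold change of each of the 43 genes (points) with its standard error (bars), grouped by step. Fbl and Dkc1 lie to the right and Bysl and Heatr1 to the left as called genes, while the other 39 are grey.

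All 3 RNA polymerase I genes had a lower mean in siRNA-Eif4a3, and none was called. Over all genes tested, 7617 of 15619 lay below 0 and 36.4% had groups that did not overlap. Of 18 other RNA polymerase I genes, 11 lay above 0 and 7 below. Polr1a, the largest subunit, measured 23.0, 24.5 and 25.2 CPM in siRNA-NC and 17.8, 11.9 and 9.33 CPM in siRNA-Eif4a3. The controls lay close together and every knockdown library was below them (log2 −0.90, SE 0.34, adjusted p 0.107). It passed the threshold in 2 of 16 alternatives, with the most counted block alone (0.0302) and without knockdown replicate 1 (0.0406). Polr1b, the second-largest subunit, was likewise below every control, at 32.7, 31.9 and 37.9 CPM against 29.1, 11.9 and 22.1 CPM (log2 −0.70, SE 0.36, adjusted p 0.223). Ubtf, the factor that holds ribosomal DNA open for the polymerase, had 67.8, 37.3 and 20.4 CPM against 23.0, 20.1 and 34.8 CPM. These overlapped (log2 −0.69, SE 0.43, adjusted p 0.317). Per kilobase, Ubtf was the highest of the 3 genes in siRNA-NC (6.39 CPM per kb) and Polr1a the lowest (2.04 CPM per kb).

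Among the snoRNP proteins, the catalytic subunits of both kinds of particle rose (2 of 8 called, 25%, beside 13.1% of all genes). Fbl, the methyltransferase of box C/D snoRNPs (GRCm38 chromosome 7, 28169710 to 28179269, plus strand), measured 66.2, 64.8 and 37.3 CPM in siRNA-NC and 141, 201 and 222 CPM in siRNA-Eif4a3. Every knockdown library was above every control library. The mean went from 56.1 ± 16.3 to 188 ± 41.9 CPM, 3.35-fold higher (log2 1.75, SE 0.33, adjusted p 0.00959). The call held under all 16 alternative settings (adjusted p 5.9e-05 to 0.0421). Counts were higher along the whole gene, since all 8 of its exon blocks, which are runs of overlapping annotated exons, were above the controls in every knockdown library. The size of the excess was uneven, with a ratio of the means of 5.11 over blocks 1 to 4 and 3.07 over blocks 5 to 8. No Fbl block passed the test of exon usage.

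Dkc1 encodes the pseudouridine synthase of box H/ACA snoRNPs, which is also a subunit of telomerase (chromosome X, 75095854 to 75109777, plus strand). Its level was 242, 297 and 269.5 CPM in siRNA-NC and 631, 722 and 529 CPM in siRNA-Eif4a3. The groups stood well apart, with means of 269 ± 27.6 and 627 ± 96.3 CPM, 2.33-fold higher (log2 1.22, SE 0.28, adjusted p 0.0195). The call was lost without control replicate 1 (adjusted p 0.0678), 2 (0.0739) or 3 (0.0703) and without knockdown replicate 2 (0.0636), and it held in the other 12 of 16 alternatives (lowest 0.00165). The excess was uneven along the gene. The 8 tested blocks up to block 9 summed to 104 ± 13.8 CPM in siRNA-NC and 156 ± 49.2 in siRNA-Eif4a3, a ratio of 1.51. Knockdown replicate 2 was at 0.959 of the control mean there. Over blocks 10 to 15 the sums were 162 ± 34.4 and 502 ± 178 CPM, a ratio of 3.10, and the same replicate 2 was at 4.36. This split was chosen after the values were seen, and no Dkc1 block passed the test of exon usage.

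**Figure D2:**
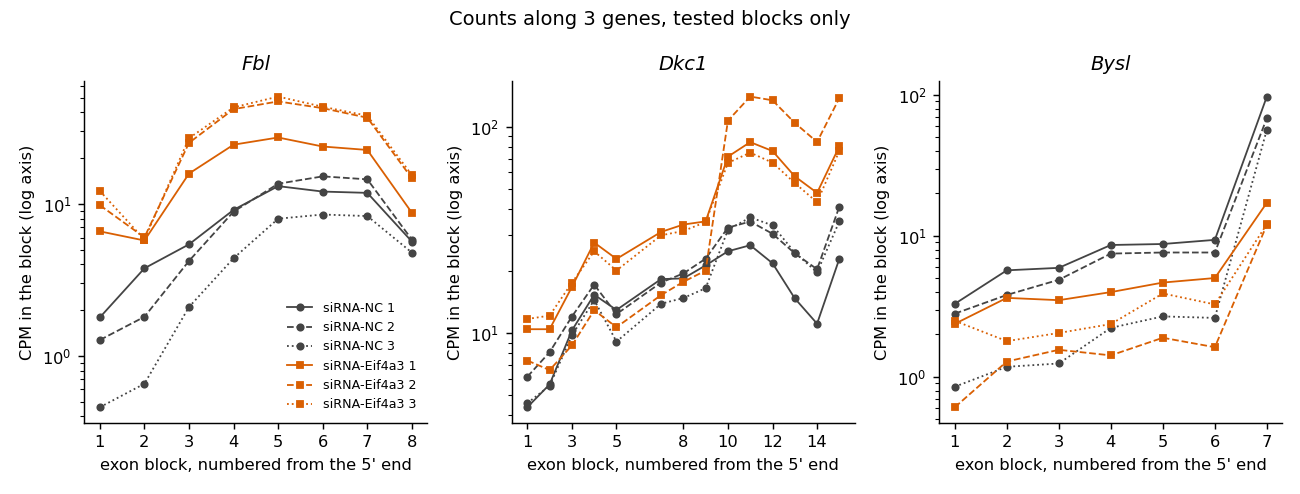
CPM (log axis) in each tested exon block of Fbl, Dkc1 and Bysl, numbered from the 5′ end, with a line for each of the 6 libraries. All Fbl blocks are higher in the 3 knockdown libraries, the Dkc1 lines part mainly from block 10 on, and the last Bysl block carries the clearest gap.

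The partners of Fbl and Dkc1 in the same particles were not called. Nop56 and Nop58, the paired core proteins of box C/D snoRNPs, had log2 fold changes of −0.26 (SE 0.35) and −0.24 (SE 0.26). Nop56 measured 379, 403 and 391 CPM in siRNA-NC but 495, 202 and 281 CPM in siRNA-Eif4a3, so its knockdown libraries spread to both sides of the controls. Nhp2, an RNA-binding core protein of box H/ACA snoRNPs, had the highest level per kilobase of exon in this group (643 CPM per kb in siRNA-NC). It measured 381, 908 and 922 CPM in siRNA-NC and 681, 991 and 1815 CPM in siRNA-Eif4a3, and the groups overlapped (log2 0.66, SE 0.45, adjusted p 0.353). Gar1, another core protein of these particles, had the lowest at 5.66 CPM per kb. Its values were 15.5, 10.9 and 2.76 CPM against 6.09, 7.87 and 7.22 CPM, which lie inside the control range (log2 −0.46, SE 0.55, adjusted p 0.614). The remaining core protein Nop10 had −0.85 (SE 0.48, adjusted p 0.263), and the snoRNP chaperone Nolc1 had 0.08 (SE 0.41). Whether the change of a subunit differed from that of its partners was not tested. Nop56 shares at least 200 bases at 97% identity or more with 3 other genes, and its counts are uncertain to that extent.

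**Figure D3:**
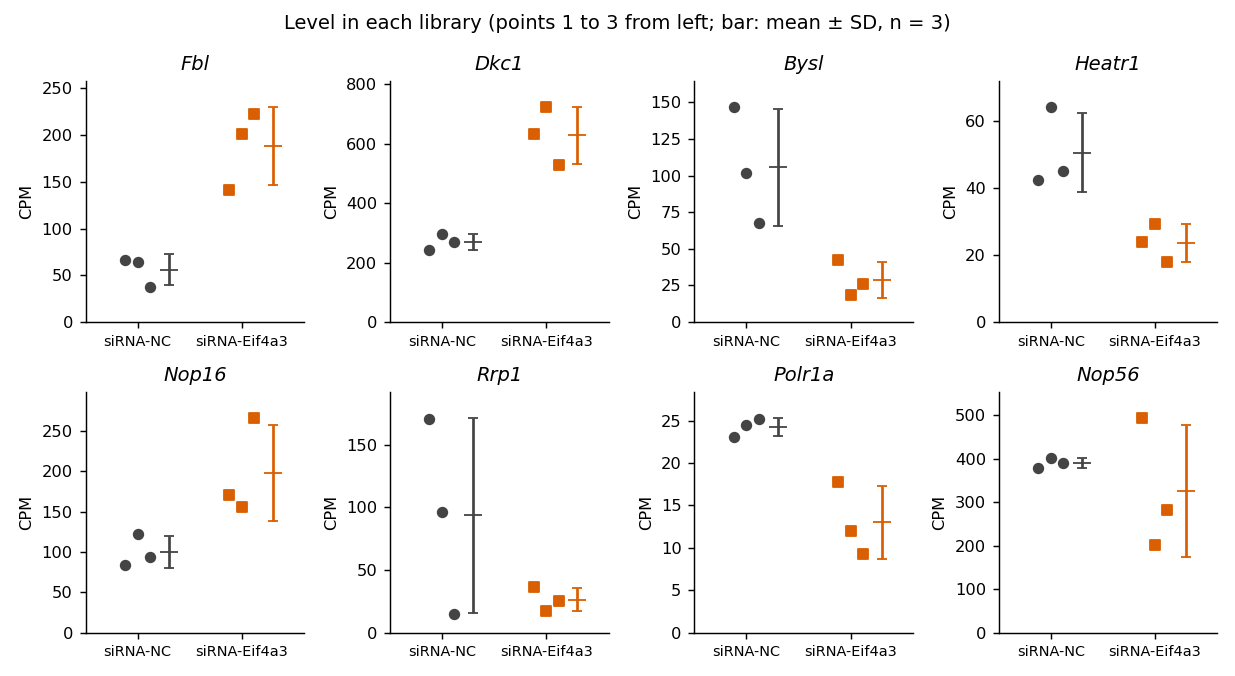
CPM of 8 factors in each library, with the mean ± SD of each group of n = 3 beside its points. The groups stand apart upward for Fbl, Dkc1 and Nop16 and downward for Bysl, Heatr1 and Polr1a, while those of Rrp1 and Nop56 overlap.

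Small subunit assembly held both members that fell (2 of 16 called, 12.5%, beside 13.1% of all genes). Bysl, a late assembly factor of the small subunit precursor (chromosome 17, 47599331 to 47611492, minus strand), measured 147, 102 and 67.7 CPM in siRNA-NC and 42.2, 18.2 and 26.3 CPM in siRNA-Eif4a3. All knockdown libraries were below all controls. Means were 105 ± 39.7 and 28.9 ± 12.2 CPM, 3.65-fold lower (log2 −1.87, SE 0.40, adjusted p 0.0154), with 11 of 16 alternatives still called (adjusted p 1.3e-05 to 0.279). The 5 that were not included leaving out control replicate 1 (0.0585), control replicate 2 (0.0533), knockdown replicate 2 (0.0583) or knockdown replicate 3 (0.0519).

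The Bysl value rests largely on its last exon block. This block has 2568 bases, and 361 of them overlap the end of Ccnd3, the cyclin D3 gene on the opposite strand. The whole block measured 97.3, 68.4 and 56.7 CPM in siRNA-NC and 17.2, 11.97 and 12.1 CPM in siRNA-Eif4a3, 5.39-fold lower. Blocks 1 to 6, which overlap no other gene, summed to 41.7, 34.2 and 10.8 CPM against 23.2, 8.39 and 15.9 CPM, 1.83-fold lower with overlapping groups. Without blocks that overlap another gene, Bysl had a log2 fold change of −0.92 (adjusted p 0.279). Ccnd3 itself measured 456, 205 and 218 CPM and then 42.6, 22.6 and 30.2 CPM, 9.20-fold lower (log2 −3.20, SE 0.41, adjusted p 0.00257). Because the library type does not mark the strand, pairs from the shared stretch cannot be told apart. The counts of the block's shared and unshared bases are not given separately, and the part of the overlap in the Bysl value was not tested.

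Heatr1, the relative of yeast Utp10 that links RNA polymerase I transcription to the processome (chromosome 13, 12395027 to 12440289, plus strand), was the other member that fell. It measured 42.3, 64.1 and 45.0 CPM in siRNA-NC and 23.9, 29.1 and 17.9 CPM in siRNA-Eif4a3, without overlap. Means of 50.5 ± 11.9 and 23.6 ± 5.60 CPM give a 2.13-fold lower level (log2 −1.09, SE 0.32, adjusted p 0.0478). The call is near its threshold and held in 5 of 16 alternatives (adjusted p 0.0179 to 0.347). Leaving out any 1 library ended it (0.0600 to 0.168). The lower counts lay toward the 3′ end. The 7 tested blocks up to block 23 summed to 8.34 ± 1.17 and 7.504 ± 3.43 CPM, and the 11 from block 24 to 47 to 33.1 ± 9.45 and 13.5 ± 3.39 CPM, a split made after the values were seen.

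The other 14 small subunit factors were not called, and those known to sit in 1 subcomplex had changes of both signs. With Heatr1, the t-UTP subcomplex of the processome includes Utp4, Utp15, Wdr43 and Wdr75. Utp4 had the highest level per kilobase of the small subunit factors (101 CPM per kb in siRNA-NC). It measured 298, 339 and 407 CPM in siRNA-NC and 213, 182 and 271 CPM in siRNA-Eif4a3, below every control but not called (log2 −0.65, SE 0.28, adjusted p 0.155). In contrast Utp15 was above every control, with 42.5, 41.6 and 47.7 CPM against 84.3, 64.1 and 57.2 CPM (log2 0.64, SE 0.28, adjusted p 0.151). Wdr75 did the same, with 96.6, 152 and 131 CPM against 153, 214 and 166 CPM (log2 0.49, SE 0.29, adjusted p 0.279). Wdr43 had overlapping groups (log2 0.36, SE 0.29). Utp20, a very large scaffold protein, had the lowest level per kilobase (2.05 CPM per kb), with 16.5, 26.8 and 19.3 CPM against 12.8, 21.6 and 20.5 CPM. Its groups overlapped (log2 −0.19, SE 0.35, adjusted p 0.757).

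The remaining small subunit factors all had overlapping groups. They ranged from −0.74 for Rrp12 (SE 0.50), a factor in export of the subunit precursors, to 0.41 for Utp3 (SE 0.40), a processome protein. The partners Nop14 and Noc4l had 0.01 (SE 0.37) and −0.62 (SE 0.33). Utp18, of the processome's UtpB subcomplex, had −0.23 (SE 0.31), and Rrp9, a protein of the U3 snoRNP, −0.19 (SE 0.57). Among the late factors, Nob1, the endonuclease that makes the final 18S end, had −0.02 (SE 0.33), its companion Ltv1 −0.15 (SE 0.31) and the GTPase-like Tsr1 −0.17 (SE 0.29). Tsr1 shares 32% of its exon bases with other genes and is uncertain to that extent.

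No large subunit factor was called. Nop16, an early assembly factor, came nearest, at 83.8, 123 and 94.1 CPM in siRNA-NC and 171, 156 and 267 CPM in siRNA-Eif4a3. It was the 1 large subunit factor whose groups did not overlap (log2 0.98, SE 0.31, adjusted p 0.0620). Of 16 alternatives, 3 called it, which were DESeq2 (0.0412), a filter of 5 CPM in 3 libraries (0.0416) and the most counted block alone (0.0426), and its other values went up to 0.192. Rrp1, a nucleolar factor of large subunit RNA processing, had the largest difference in size among the 12, but its controls ran from 170.4 over 96.1 down to 15.03 CPM against 36.6, 17.7 and 25.3 CPM in siRNA-Eif4a3. Control replicate 3 was thus below every knockdown library (log2 −1.82, SE 0.67, adjusted p 0.0990). Without that library the adjusted p was 0.0201, with DESeq2 0.0213 and without a filter on low counts 2.7e-05, while the highest of 16 alternatives was 0.341.

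Mrto4, the placeholder for the stalk protein P0, had the highest level per kilobase of the large subunit factors (82.7 CPM per kb in siRNA-NC). Its values were 191, 246 and 210.4 CPM against 282, 246 and 455 CPM, which overlap (log2 0.60, SE 0.31, adjusted p 0.223). Rrs1, which brings the 5S RNA particle to the precursor, had the lowest (2.75 CPM per kb), at 8.70, 5.98 and 2.23 CPM against 5.81, 2.97 and 4.45 CPM (log2 −0.35, SE 0.54, adjusted p 0.705). Bop1, Pes1 and Wdr12 form the PeBoW complex of precursor processing. They had −0.80 (SE 0.38), −0.32 (SE 0.36) and 0.18 (SE 0.28), and the groups overlapped for each. The others ranged from −0.72 for Noc2l (SE 0.48) to 0.37 for Noc3l (SE 0.33), which work together in export, with the rRNA methyltransferases Ftsj3 at −0.39 (SE 0.44) and Nop2 at −0.33 (SE 0.45), and Nip7 at 0.05 (SE 0.27). Mrto4 and Wdr12 each have near-identical stretches in 2 other genes, so their counts are uncertain.

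Of the factors that act in several steps, none was called. Npm1, the nucleophosmin gene, was the most abundant of all 43 per kilobase (950.1 CPM per kb in siRNA-NC). It measured 1622, 3082 and 2892 CPM in siRNA-NC and 1682, 2149 and 2972 CPM in siRNA-Eif4a3, with overlap (log2 −0.16, SE 0.36, adjusted p 0.806), and near-identical stretches lie in 2 other genes. Mybbp1a, a nucleolar repressor of transcription, had the lowest level in this group (7.17 CPM per kb). Its values were 61.3, 44.8 and 18.8 CPM against 28.5, 17.0 and 18.1 CPM, which overlap through control replicate 3 (log2 −0.97, SE 0.43, adjusted p 0.162). Gnl3, the nucleostemin gene, was above every control, at 111, 159.6 and 182 CPM against 211, 231 and 207 CPM (log2 0.52, SE 0.28, adjusted p 0.243). Ncl, the nucleolin gene, had 0.01 (SE 0.33).

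The spread among the control libraries was itself uneven for these genes. Of 43 members, 23 had their lowest control value in replicate 3. The ratio of control replicate 1 to replicate 3 was 11.3 for Rrp1, 5.73 for Rrp9 and 5.61 for Gar1, and it rose with the GC content of the members (Spearman 0.56 over 43 genes, beside 0.20 over 15594 genes). The log2 fold change between the groups fell with GC content (−0.41 over members, −0.13 over all genes). These genes share their libraries, and the relations are descriptions. With offsets for GC content and length, Heatr1 had −0.89 (adjusted p 0.0614), and Fbl, Dkc1 and Bysl were still called. Among the knockdown libraries, replicate 2 was lowest for 22 of 43 members.

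Exon usage was tested over 67890 blocks, of which 114 (0.168%) were called. None of the 477 tested blocks of members was called by edgeR, and the lowest adjusted p was 0.241. At an unadjusted p under 0.05 there were 12 such blocks in 9 members, or 2.52% of the 477, where this limit allows 5% by itself. The same share over all 67890 blocks is not given here, and neighbouring blocks share pairs. The 2.52% is therefore not a result about the members, and no other tool was run. The first and the second of these 12 blocks by p-value were singled out after their values were seen. They belong to exons that GENCODE vM21 gives to NMD variants and to no protein-coding variant. Their status in vM29, the release of the counted lines, was not checked. Only 3 tested member blocks are of this kind, and all 3 took a larger share of their gene in siRNA-Eif4a3. Those of Nop58 and Wdr43 had enough counts to be tested only through the siRNA-Eif4a3 libraries, where they are high. Blocks of this kind with low counts in both groups could not be tested. The shared direction was thus partly set by the filter on low counts. The 238 of 477 member blocks with a larger share are not a like comparison.

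Block 9 of Nop58 (chromosome 1, 59703136 to 59703224, plus strand, 89 bases) is an exon of the variant Nop58-210, which reads 26 coding bases in it before a stop codon. The stop is shown in capitals at the end of those bases, on GRCm38 at chr1:59703136-59703164, because it is what makes the variant a decay candidate.
Nop58 block 9, coding bases and stop: ctttggctgtactagaactcactctaTAG
This block held 4, 6 and 5 counts in siRNA-NC and 27, 22 and 21 counts in siRNA-Eif4a3, so every knockdown library was higher. As a share of the next block, which is in the main transcript, it was 0.428%, 0.853% and 0.676% in siRNA-NC and 3.10%, 3.35% and 2.79% in siRNA-Eif4a3. Means were 0.652% ± 0.214 and 3.08% ± 0.282. Nop58 as a whole was not called, and the block's log2 change relative to the gene was 2.29 (adjusted p 0.241).

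Block 13 of Wdr43 (chromosome 17, 71643148 to 71643419, plus strand) lies in an NMD variant and a retained-intron variant. It held 3, 3 and 7 counts in siRNA-NC and 23, 32 and 20 counts in siRNA-Eif4a3, again with no overlap. Relative to the next block this was 1.80%, 1.75% and 5.30% against 8.33%, 18.2% and 8.62%. Its log2 change relative to the gene was 2.05, with an adjusted p of 0.519. The third such block, the last of Heatr1, had 0.43 (unadjusted p 0.328) and overlapping groups. Counts this low limit what the test can show.

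**Figure D4:**
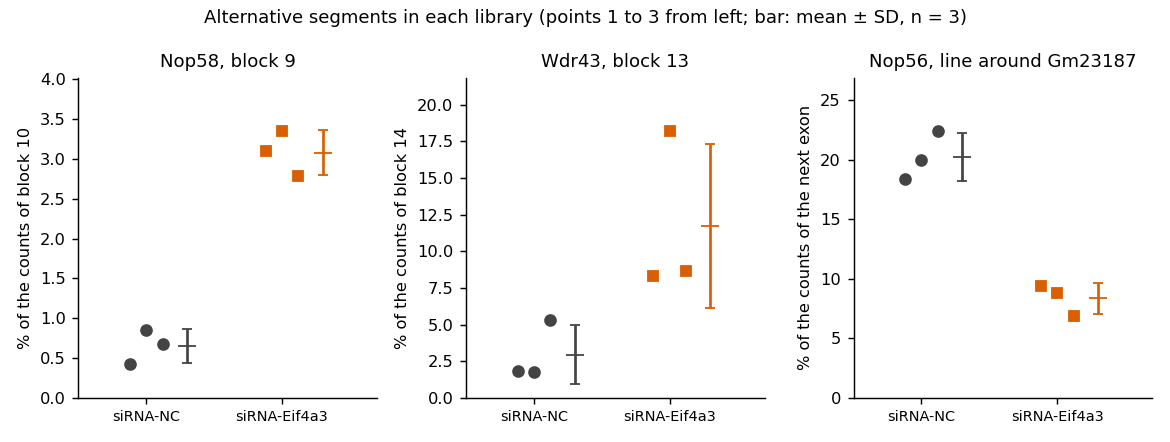
Percent of the counts of the following exon found in an alternative segment, in each library, with the mean ± SD of n = 3. The NMD exons of Nop58 and Wdr43 are higher, and the intron line of Nop56 lower, in all 3 knockdown libraries than in all 3 controls.

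Several members also carry snoRNA genes, the guides of the particles that their own proteins build. By the gene types of GENCODE vM21, there are 21 of them on the same strand inside 7 members (Nop56, Nop58, Dkc1, Wdr43, Tsr1, Ncl and Gnl3). Libraries made from polyadenylated RNA hold few mature snoRNAs, and the median total over all 6 libraries was 5 counts. Only 4 snoRNA genes passed the filter on low counts. Of these, 3 show the short boxes of the C/D kind and 1 ends as an H/ACA snoRNA does. Their sequences are given on GRCm38, from the GENCODE transcripts, with TGATG of box C and CTGA of box D, or the ACA near the end, in capitals. For Gm23187 and Gm26293, which NMD variants of the hosts also cover, 30 bases of each end are shown.
Gm23187 in Nop56, first bases (chr2:130277195-130277224, plus strand): gattacaaTGATGgctgaccagggcaacct
Gm23187 in Nop56, last bases (chr2:130277251-130277280, plus strand): gtgatggccagtcctggtgtCTGAgtgatt
Gm26293 in Nop58, first bases (chr1:59692509-59692538, plus strand): ctcaatgttgtcaaTGATGcatcttattgg
Gm26293 in Nop58, last bases (chr1:59692563-59692592, plus strand): attcgtcactaccaCTGAgacaacattgag
Gm23650 in Nop56 (chr2:130277697-130277766, plus strand): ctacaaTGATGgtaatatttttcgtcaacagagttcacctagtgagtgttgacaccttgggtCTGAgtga
Gm24451 in Nop56 (chr2:130276237-130276369, plus strand): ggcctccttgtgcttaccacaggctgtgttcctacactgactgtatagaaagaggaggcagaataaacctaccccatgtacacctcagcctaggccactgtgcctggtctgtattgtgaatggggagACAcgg

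Gm23187 fell. It measured 10.99, 13.9 and 16.3 CPM in siRNA-NC and 7.40, 2.79 and 3.25 CPM in siRNA-Eif4a3, without overlap (13.7 ± 2.68 and 4.48 ± 2.54 CPM, log2 −1.61, SE 0.46, adjusted p 0.0449). It was called in 8 of 15 alternatives (adjusted p 0.0088 to 0.126). Leaving out any 1 library other than knockdown replicate 1 ended the call (0.0749 to 0.126), as did the offsets for GC content and length (0.118). The gene lies in an intron of the full-length Nop56 transcript (130277133 to 130277475, 343 bases), but variants that start in or keep this intron cover it too. Pairs from those variants count for both genes and cannot be told apart from snoRNA. The annotated line around it (130277157 to 130277314) held 258, 247 and 281 counts in siRNA-NC and 190, 52 and 60 counts in siRNA-Eif4a3. Relative to the next exon of the full-length transcript, these were 18.4%, 19.95% and 22.4% against 9.41%, 8.77% and 6.90%. The shares of the groups stood apart (20.2% ± 2.01 and 8.36% ± 1.31, exact two-sided permutation p 0.1, the smallest possible at n = 3 against 3), and this share was examined after the values were seen. The other 3 snoRNA genes were not called. Gm24451 had −1.10 (adjusted p 0.319), Gm23650 −1.61 (adjusted p 0.308) and Gm26293 0.41 (adjusted p 0.757). The 353 annotated ribosomal RNA genes together held only 21 to 59 counts per library, so the precursor itself was not measured.

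Other genes of the pathway, 143 in 6 lists of which all were tested, gave 8 higher and 5 lower calls (9.09%, beside 13.1% of all genes), with a median log2 fold change of 0.18. These lists were compiled with earlier results of the same data known. In snoRNP assembly, 2 of 11 matched genes rose (18.2% called, beside 13.1% of all genes) and the median was 0.87. Znhit6, a box C/D assembly factor, had 81.7, 94.0 and 91.5 CPM in siRNA-NC and 178, 170.0 and 290.4 CPM in siRNA-Eif4a3 (log2 1.26, SE 0.30, adjusted p 0.0231). Naf1, which loads H/ACA particles, had 1.44, 1.86 and 1.44 CPM against 7.54, 13.1 and 2.95 CPM (log2 2.31, SE 0.58, adjusted p 0.0286). Both were above every control. Znhit3, a partner of box C/D assembly, was close to the threshold (log2 1.28, SE 0.40, adjusted p 0.0625).

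Among 18 other RNA polymerase I genes, 1 rose (5.56% called, beside 13.1% of all genes) and the median was 0.11. This was Taf1d, a subunit of the promoter selectivity factor, with 31.9, 52.5 and 65.8 CPM against 88.7, 184 and 129 CPM (log2 1.42, SE 0.37, adjusted p 0.0321). Its fellow subunit Taf1a (0.99, SE 0.31, adjusted p 0.0626) and the polymerase subunit Polr1e (0.83, SE 0.29, adjusted p 0.0846) were not called. Of 43 other small subunit genes, 3 rose (6.98% called, beside 13.1% of all genes), with a median of 0.11. These were Rrp36 (log2 1.34, SE 0.33, adjusted p 0.0253), Nol7 (1.18, SE 0.33, adjusted p 0.0433) and Nol11 (0.95, SE 0.28, adjusted p 0.0481), all parts of the processome. Nol11 works in the t-UTP group with Heatr1 and Utp4, whose own means were lower.

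Of 44 other large subunit genes, 2 fell (4.55% called, beside 13.1% of all genes) and the median was 0.12. Npm3, a histone chaperone related to Npm1, measured 53.3, 74.3 and 66.7 CPM in siRNA-NC and 16.9, 16.8 and 27.7 CPM in siRNA-Eif4a3, 3.16-fold lower (log2 −1.66, SE 0.32, adjusted p 0.0106), and was called in all 16 alternatives. Senp3, a nucleolar SUMO protease, had −1.06 (SE 0.30, adjusted p 0.0428). Nle1, a factor that primes the last maturation steps, had −1.96 (SE 0.61, adjusted p 0.0618) at levels under 3 CPM. The 15 RNA exosome genes, which trim the precursor, had a median of 0.43 with 1 call each way (13.3% called). Exosc9, a ring subunit, rose (0.97, SE 0.27, adjusted p 0.0410) and the helicase Mtrex fell (−1.12, SE 0.29, adjusted p 0.0307). Exosc7, another ring subunit, had 1.02 (SE 0.35, adjusted p 0.0827).

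Of 12 upstream regulators, 1 rose and 2 fell (25% called, beside 13.1% of all genes), and the median was −0.24. The list was compiled with 6 genes of the Myc network, of which Myc, Mycn and Mxd4 were called and Max, Mycl and Mnt were not. None of the other 6 was called. Mycn fell from 7.56, 4.65 and 3.61 CPM to 0, 0.606 and 0.120 CPM (log2 −4.46, SE 0.96, adjusted p 0.0155). It had enough counts to be tested only through the siRNA-NC libraries. Myc, whose product drives many ribosome biogenesis genes, fell from 17.96, 14.8 and 26.3 to 5.11, 1.999 and 8.004 CPM (log2 −1.97, SE 0.50, adjusted p 0.0309). Mxd4, an antagonist of Myc, rose from 2.74, 5.31 and 5.18 to 11.3, 13.1 and 14.7 CPM (log2 1.57, SE 0.40, adjusted p 0.0309). All 3 had groups that did not overlap. Without any 1 of the control libraries, no gene of the 6 lists was called higher. Among the genes that fell, Mycn lost its call without knockdown replicate 3 (adjusted p 0.0513), and Myc without any library but that one (0.0519 to 0.0969). Mtrex lost it without control replicate 1 (0.0502), 2 (0.1002) or 3 (0.0879) or knockdown replicate 2 (0.1031), and Senp3 without any 1 of the 6 libraries (0.0555 to 0.131).

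**Figure D5:**
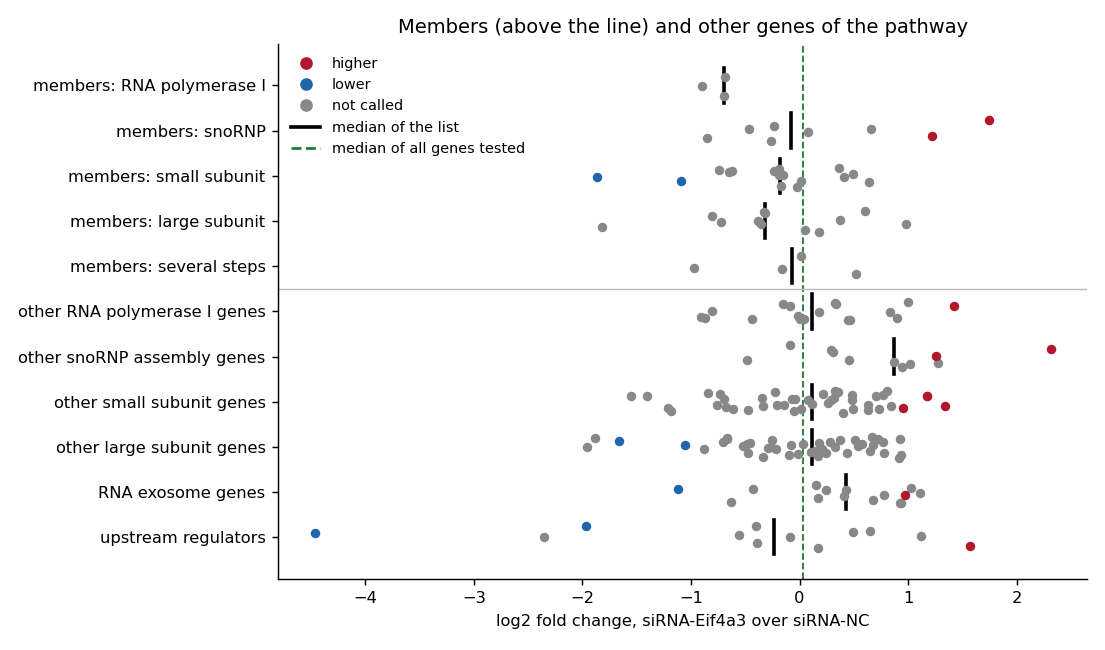
Log2 fold change of every member (above the grey line) and of 143 other pathway genes, with the median of each list and of all genes tested (0.03). Called genes are red (higher) or blue (lower), and Mycn lies farthest to the left.

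Because Myc binds the E-box CACGTG, the members' promoters were searched for it. The RefSeq windows on GRCm38.p6, from 250 bases before to 50 after the annotated start, held 38 of 43 members (not Rrp12, Bop1, Npm1, Rrs1 and Fbl). CACGTG, which reads the same on both strands, was present in 9 of these 38 (23.7%), beside 8.09% of 27025 genes and 8.91% of 17492 protein-coding genes. The 30-base windows with the E-box in capitals show where the members share it.
Nop2 (chr6:125131811-125131840, plus strand): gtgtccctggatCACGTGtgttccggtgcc
Utp4 (chr8:106893643-106893672, plus strand): tgcgcaagcgcgCACGTGgggccggggcgg
Ltv1 (chr10:13193092-13193121, minus strand): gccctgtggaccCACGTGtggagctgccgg
Utp20 (chr10:88826765-88826794, minus strand): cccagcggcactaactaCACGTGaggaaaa
Pes1 (chr11:3963965-3963994, plus strand): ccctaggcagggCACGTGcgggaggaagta
Mybbp1a (chr11:72441347-72441376, plus strand): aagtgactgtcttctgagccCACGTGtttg
Tsr1 (chr11:74898092-74898121, plus strand): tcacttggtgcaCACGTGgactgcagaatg
Utp18 (chr11:93885769-93885798, minus strand): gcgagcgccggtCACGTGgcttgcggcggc
Wdr43 (chr17:71616220-71616249, plus strand): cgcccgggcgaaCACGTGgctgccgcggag

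None of these 9 members was called. Their median log2 fold change was −0.23 (range −0.97 to 0.36), beside −0.02 (−1.87 to 1.22) for the 29 members without the E-box in the window, of which 3 were called. In 7 of 9 promoters the E-box began after the annotated start. A match describes letters in the window and is not a measured binding site.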

How the data were processed

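RNA-seq of 6 pools of embryos was compared, 3 siRNA-NC and 3 siRNA-Eif4a3. Per the labels' protocols, libraries were made with Smart-seq2 from polyadenylated RNA and read as pairs of 150 bases. Per the submitters' processing notes, FastQC 0.11.9, fastp 0.20.1, STAR 2.7.6a, featureCounts 2.0.1, R 4.1.1 and DESeq2 1.34.0 were used with GRCm38. Per the file headers, the deposited values are raw counts of read pairs per exon line of GENCODE vM29 placed on GRCm38, with strand setting 2, pairs counted in each line they overlap, and no option for pairs with several alignments. Smart-seq2 does not mark strand, so pairs of the other orientation are missing and overlapping genes cannot be separated.

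From 842173 lines, repeated lines were dropped (449500 distinct exons), exons that overlap within a gene were joined into 291424 blocks, each block took the count of its most counted line, and a gene's value is the sum of its blocks. A pair across a junction counts in each of its blocks. Symbols were matched for 55102 of 55378 genes. Variant types, snoRNA gene types, GC content and transcript sequences were taken from GENCODE vM21. Genes were tested with edgeR 4.0.16 under R 4.3.3 (filterByExpr, TMM, quasi-likelihood, two-sided, Benjamini-Hochberg over 15619 genes) and blocks with diffSpliceDGE. The standard error is the size of the log2 fold change over the root of F. The scripts were tested on simulated data. Block counts per library ranged from 15607227 to 18697754, and their number limits the precision of low genes. Alternatives were DESeq2 1.42.0, other scalings, filters and gene summaries, each library left out and a replicate block. Offsets for GC content and length were chosen after seeing the data. Full values are printed for called members, the highest and lowest level per kilobase in each step, the 3 smallest p-values outside the threshold and up to 3 genes of each list. The members and lists were chosen with earlier results of these data known.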

Additional observations from a re-analysis of the deposited data

How the results depend on the processing

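No value changed direction with a call under any alternative, and of 688 member values 660 kept both direction and side of the threshold, 20 lost their call and 8 gained one. Genes higher (1174) and lower (869) became 1880 and 1392 with DESeq2, and 2089 and 1518 without a filter on low counts. Leaving out a library gave 550 to 1224 and 336 to 1130. Eif4a3 itself stayed called in all 16 alternatives, but the size of its fall depended on the setting. Its log2 fold change ran from −3.29 without knockdown replicate 3 to −1.52 with the most counted block (edgeR adjusted p 0.0403). For members, leaving out a library gave 1 to 2 higher and 0 to 2 lower. Members lower numbered 1 with upper-quartile scaling, with at least 5 CPM in 3 libraries, with all exon lines summed, with blocks that overlap no other gene, and with GC content and length offsets. Other pathway genes lower (5) were 10 with DESeq2, 8 without a filter and 3 with the most counted block, and leaving out a library gave 0 to 8 higher and 2 to 6 lower. Exon blocks called (114) were 4 at a mean of at least 5 CPM and 21 to 154 with a library left out. The cause of these shifts was not tested. The deviations of same-numbered libraries had correlations of 0.33, 0.00 and 0.12, which cannot settle whether the numbers pair the samples. The labels do not say whether they do. With a replicate block, 1331 genes were higher and 1196 lower in place of 1174 and 869. In the same setting 13 other pathway genes were higher in place of 8, and 174 exon blocks were called in place of 114. Depth limits low genes such as Rrs1, Gar1 and the NMD exons.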

Other observations

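Summed over the 43 factors, the libraries held 6652, 8888 and 8157 CPM in siRNA-NC and 7333, 7447 and 9841 CPM in siRNA-Eif4a3, and without Npm1 they held 5030, 5805 and 5265 CPM against 5651, 5298 and 6868 CPM. The sums of the groups overlapped both ways.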
